A study of Homo sapiens with 9 samples.

Results

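The transfection of NCI-H1993 cells with siTDRD9-1, the stronger of a pair of small interfering RNAs (siRNAs) against *TDRD9*, was compared with the transfection of the same cells with a control siRNA (siControl). NCI-H1993 is an established human lung adenocarcinoma cell line, and no genotype other than that of the line is given. The comparison used 6 of the 9 arrays of the series, 3 with siControl and 3 with siTDRD9-1, and the other 3 arrays, with siTDRD9-2, were set beside them. All cells were collected 72 h after transfection, and the 3 arrays of a group come from 3 independent transfection experiments, so that a p-value measures the spread between transfections of 1 cell line. The knockdown was transient, and untransfected cells were not analysed here. The labels' extraction text names another cell line, while the sample labels give NCI-H1993, and the sample labels were followed.

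Values are log2 signals of PrimeView arrays, normalised by the robust multichip average (RMA) method, so that a difference of 1 is a factor of 2. A probe set is a group of probes that report 1 signal, and 49293 non-control probe sets were tested, of which 44988 named 1 gene. These named 18132 genes, and a gene is given at its brightest probe set, by mean signal across the 9 arrays, unless another is stated. A gene is said to have risen or fallen where its limma p-value, adjusted over all 49293 probe sets, was under 0.01 (a false discovery rate, FDR, of 0.01), and it is called where the change was also at least 2-fold.

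*TDRD9* encodes a Tudor domain protein with an RNA helicase domain. In the mouse germline its protein works with PIWI proteins, which carry small RNAs (piRNAs) against transposable elements. Outside the germline it is expressed in some tumours. An siRNA is loaded on an Argonaute protein and directs the cutting of a matching mRNA, and it can also lower other mRNAs through a partial match. For this reason the signals or changes with siTDRD9-2 are given beside many of the changes, though not all, and the difference between the siRNAs has its own test. A change printed without its siTDRD9-2 value is not thereby shown to differ between the siRNAs. Both siRNAs were compared with the same siControl arrays, so their changes against siControl are not independent of each other.

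The 9 arrays had medians between 5.75 and 5.80, and arrays of 1 group correlated at 0.994 or above over all probe sets. The array of siTDRD9-1 replicate 3 had a narrower spread of signals than the others, with an SD of 2.54 against 2.60 to 2.62. Controls added to the RNA or read from ribosomal RNA differed between the siControl arrays and the arrays of both siRNAs. The poly-A spike-ins, bacterial RNAs added before labelling, averaged 8.35 ± 0.13 in the siControl arrays (SD, n = 3), 7.60 ± 0.19 in the siTDRD9-1 arrays and 7.66 ± 0.10 in the siTDRD9-2 arrays. The 18S ribosomal RNA control read 12.15, 12.36 and 11.29 in the siControl arrays and 13.08, 13.69 and 13.46 in the siTDRD9-1 arrays. It averaged 13.42 ± 0.39 in the siTDRD9-2 arrays. The signal of 3′ probe sets above 5′ probe sets, a measure of RNA length and labelling, was lower with siTDRD9-1, at 1.09 ± 0.09 against 1.44 ± 0.17 for the spike-ins, -0.09 ± 0.01 against 0.14 ± 0.16 for *GAPDH* and 0.29 ± 0.05 against 0.57 ± 0.18 for *ACTB*. For each of these measures the exact two-sided permutation test of siTDRD9-1 against siControl gave p = 0.1, the smallest that 3 arrays against 3 allow. Every comparison with siControl shares this difference of the control arrays, and its part in the changes was not tested. In a bulk sample, fewer cells of a type and less RNA per cell cannot be told apart.

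*TDRD9* itself had the largest fall of any gene at its brightest probe set. Its single probe set read 6.65, 6.80 and 6.93 in the siControl arrays, 4.94, 4.64 and 4.28 in those of siTDRD9-1, and 6.12, 6.12 and 6.05 in those of siTDRD9-2. The groups did not overlap, and siTDRD9-1 replicate 3 had the lowest signal. The change with siTDRD9-1 was -2.18 (SE 0.14, limma adjusted p = 2.22e-05), which left 22.1% of the siControl signal. With siTDRD9-2 the change was -0.70 (adjusted p = 0.00931), which left 61.7%, and the difference between the siRNAs was itself past the threshold (-1.48, adjusted p = 0.000426). Of 22 genes of the piRNA pathway that were measured, *TDRD9* was the only one past the threshold at its brightest probe set. The related Tudor genes *TDRD1* and *TDRD5* were dim, with changes of 0.28 (adjusted p = 0.082) and 0.40 (adjusted p = 0.14).

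Among the other Argonaute-linked genes, 3 of 14 of the RNA interference machinery fell and none rose, against 2.8% of all genes that fell and 1.25% that rose at this threshold. *DICER1*, which cuts microRNA precursors, read 8.83, 9.09 and 9.23 with siControl and 8.15, 8.27 and 8.24 with siTDRD9-1 (-0.83, SE 0.11, adjusted p = 0.000757). A second probe set of *DICER1* fell by 0.57, and another had a change of 0.49 in the other direction that did not pass (adjusted p = 0.021). *PRKRA*, a partner of Dicer, fell by 0.60 and *TNRC6A*, a scaffold of the silencing complex, by 0.52. Over the alternatives that were run for gene lists, between 1 and 3 genes of this group fell. *PRKRA* and *TNRC6A* were also lower with siTDRD9-2, by 0.56 and 0.71 on the log2 scale. *DICER1* had a change of -0.50 with siTDRD9-2 that did not pass (adjusted p = 0.0114).

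Over all probe sets, 352 were called with siTDRD9-1, 241 up (0.489% of those tested) and 111 down (0.225%). In all 352 the 3 siTDRD9-1 arrays lay on 1 side of the 3 siControl arrays. With genes counted once, at the brightest probe set, the balance was the other way, with 33 genes called up (0.182%) and 49 called down (0.27%). At the FDR of 0.01 alone 227 genes rose and 508 fell. The median change was 0.00 over all probe sets and -0.03 over the genes at their brightest probe set. The excess of called falls depended on the processing, since without siTDRD9-1 replicate 3 the counts were 46 up and 38 down, and with all probe sets of a gene averaged they were 22 up and 17 down. Of the 82 genes, 20 called up and 23 called down kept their call with each of the 6 arrays left out in turn.

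**Figure D1:**
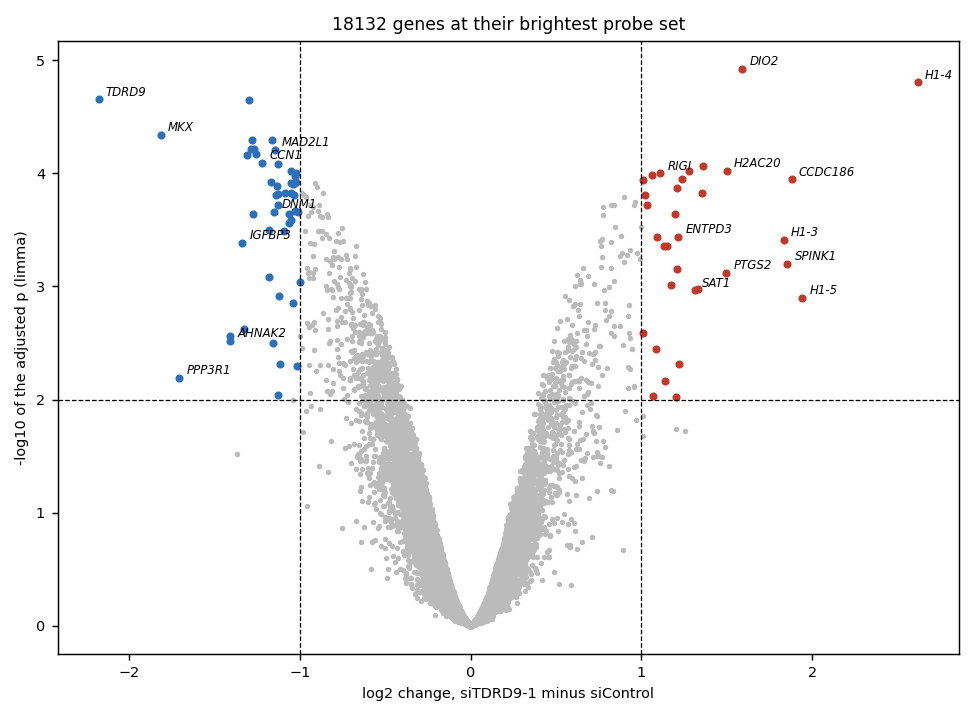
Change of each of 18132 genes at its brightest probe set (x axis, log2, siTDRD9-1 minus siControl) against the -log10 of its limma adjusted p (y axis). Dashed lines mark 2-fold and an adjusted p of 0.01, red points are the 33 genes called up and blue points the 49 called down, and *TDRD9* at -2.18 and *H1-4* at 2.62 are the outermost named points.

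The largest rise at a brightest probe set was that of a linker histone. Linker histones (H1) bind the DNA that enters and leaves the nucleosome. Most H1 genes lie in the histone cluster of chromosome 6 and are expressed in S phase, from mRNAs that end in a stem loop in place of a poly(A) tail. *H1-4* read 4.48, 4.69 and 5.21 with siControl and 7.43, 7.36 and 7.44 with siTDRD9-1, a 6.14-fold rise (2.62, SE 0.16, adjusted p = 1.57e-05). *H1-5* read 5.16, 5.64 and 5.98 against 7.02, 7.71 and 7.87 (1.94, SE 0.28, adjusted p = 0.00127). *H1-3* read 5.67, 6.16 and 5.77 against 7.81, 7.46 and 7.83 (1.83, SE 0.21, adjusted p = 0.000388). *H1-2* was bright in every array and rose from 10.37, 10.20 and 10.18 to 11.30, 11.09 and 11.12 (0.92, adjusted p = 0.0079). In these 4 genes every siTDRD9-1 array lay above every siControl array.

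Thus 4 of the 7 linker histone genes measured rose, against 1.25% of all genes that rose. The changes of *H1-10* (-0.28), *H1-1* (0.01) and *H1-6* (0.03) did not pass. The 7 genes had a median change of 0.92 with siTDRD9-1 and of 0.88 with siTDRD9-2, and *H1-4* was 3.02 higher with siTDRD9-2. Among 55 core histone genes of the clusters, a group chosen after the values were seen, only *H2AC20* (9.26, 9.52 and 9.59 against 11.06, 10.75 and 11.07, adjusted p = 9.5e-05) and *H2AC17* rose at their brightest probe set, none fell, and the median change was 0.03. The 18S ribosomal RNA control, also an RNA without a poly(A) tail, was 1.48 higher in the siTDRD9-1 arrays, and its part in the histone signals was not tested.

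The 4 genes that rose share a promoter element named after H1 genes, so its presence in their promoters follows from the choice of H1 genes. The stretches below, from RefSeq promoters on GRCh38.p14, are printed 5′ to 3′ on the gene's strand, with the H1 box (AAACACA) and the CCAAT box in capitals.
*H1-2* (chr6:26056513-26056596, minus strand): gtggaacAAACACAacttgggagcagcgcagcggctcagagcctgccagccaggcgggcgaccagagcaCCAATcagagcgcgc
*H1-3* (chr6:26235030-26235113, minus strand): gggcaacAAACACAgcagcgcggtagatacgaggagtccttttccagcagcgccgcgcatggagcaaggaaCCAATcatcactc
*H1-4* (chr6:26156205-26156288, plus strand): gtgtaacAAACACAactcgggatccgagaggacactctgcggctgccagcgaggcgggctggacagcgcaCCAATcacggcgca
*H1-5* (chr6:27867629-27867712, minus strand): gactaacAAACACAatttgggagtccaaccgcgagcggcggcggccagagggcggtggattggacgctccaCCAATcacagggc
AAACACA was searched for on both strands of the 300-base promoters, and the letters do not overlap CCAAT. It was present in 6 of 7 linker histone promoters (85.7%) and in 5.64% of all 35116 promoters, while CCAAT was present in 34.6% of all. Of the 6 genes with the element, 4 rose. The motifs were chosen after the values were seen, and a match is a description of the letters only.

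*CDKN1A* encodes p21, an inhibitor of cyclin-dependent kinases and a main target of p53. NCI-H1993 cells with siTDRD9-1 had more of its RNA, with signals of 9.99, 10.25 and 9.84 against 9.16, 9.29 and 9.29 with siControl. The rise was 1.72-fold (0.78, SE 0.11, adjusted p = 0.00108), and a second probe set rose by 0.80. With siTDRD9-2 the signals were 9.11, 9.12 and 9.17, a change of -0.11 (adjusted p = 0.58), which left siTDRD9-1 0.90 above siTDRD9-2 (adjusted p = 0.00103). Of 26 p53 targets measured, 2 rose (7.69%, against 1.25% of all genes) and 1 fell (3.85%, against 2.8%), with a median change of -0.03 that equals the median of all genes. The second that rose was *TNFRSF10B*, a death receptor (0.54, adjusted p = 0.00757). *PLK2*, a polo-like kinase, fell from 10.31, 10.28 and 10.46 to 9.47, 9.57 and 9.40 (-0.87, adjusted p = 0.000325), and its 3 other probe sets had changes of -0.34 to -0.42 that did not pass. *MDM2* differed between arrays of the siTDRD9-1 group more than between groups (8.41 ± 0.17 with siControl and 8.63 ± 0.72 with siTDRD9-1, SD, n = 3). Of 16 genes of the BCL2 family only *BCL2L1* passed, with a fall of 0.45.

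Among genes that respond to interferon or sense RNA in the cytoplasm, 3 of 51 measured rose at the FDR of 0.01 (5.88%, against 1.25% of all genes) and none fell. Of the 51, 42 had a higher and 9 a lower mean with siTDRD9-1, with a median change of 0.17 against -0.03 over all genes. In 13 of the 51 (25.5%) the 3 siTDRD9-1 arrays lay above the 3 siControl arrays, and in none below, while over all genes the shares were 8.76% above and 18.9% below. With siTDRD9-2 the median change of the same 51 genes was -0.07, and 2 of them fell and 0 rose. The difference between the siRNAs itself passed in 6 genes, all higher with siTDRD9-1. The share of all genes that passed it is not given here. Of these, *OAS1* had a change of -0.10 with siTDRD9-1 and fell by 0.67 with siTDRD9-2. *ISG15* and *ISG20* had changes of 0.32 and 0.24 with siTDRD9-1 and of -0.38 and -0.58 with siTDRD9-2, none past the threshold. The others were *RIGI*, *IRF7* and *IFI35*, described below.

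*RIGI*, which encodes the sensor of double-stranded RNA RIG-I, read 6.27, 6.31 and 6.32 with siControl against 7.34, 7.55 and 7.34 for siTDRD9-1. The siTDRD9-2 arrays lay between, at 6.66, 6.86 and 6.61. It was called with siTDRD9-1 (1.11, SE 0.10, adjusted p = 9.98e-05) and stood 0.70 above siTDRD9-2 (adjusted p = 0.00225), but its 2 other probe sets had changes of 0.24 and 0.49 that did not pass. *LGALS3BP*, a secreted glycoprotein, rose by 0.81 (adjusted p = 0.00181) and *IRF7*, the regulator of interferon genes, by 0.42 (adjusted p = 0.00916). With siTDRD9-2 their changes were 0.54 (adjusted p = 0.0139) and -0.20 (adjusted p = 0.157). *IFI35*, an interferon-induced protein, read 9.27, 9.36 and 9.38 against 9.95, 9.83 and 9.70. Its groups did not overlap, but its change of 0.49 just missed the threshold (SE 0.10, adjusted p = 0.0106), as did that of its other probe set (0.50). *IFI35* was 0.67 higher with siTDRD9-1 than with siTDRD9-2 (adjusted p = 0.00336). *IFIT3* and *MX1* had changes of 0.61 (adjusted p = 0.0189) and 0.62 (adjusted p = 0.208), with signals of 5.28 ± 0.09 and 3.58 ± 0.17 with siControl and 5.89 ± 0.34 and 4.20 ± 0.71 with siTDRD9-1.

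The number of interferon genes past the threshold depended on single arrays and on the choice of probe set. Without siTDRD9-1 replicate 3 it was 7 of 51 (*IFIT3*, *MX1*, *IRF9*, *IFI6*, *IFI44*, *RIGI* and *LGALS3BP*), and with siControl replicate 2, siControl replicate 3 or siTDRD9-1 replicate 1 left out it was 1. With all probe sets of a gene averaged it was also 7 (*IFI35*, *IRF7*, *IRF9*, *RIGI*, *CMPK2*, *LGALS3BP* and *ADAR*). The median change stayed between 0.14 and 0.22 over the alternatives that were run for gene lists. *RIGI* passed with each array left out in turn. In the group of antigen presentation, 2 of 23 genes rose (8.7%, against 1.25% of all genes) and none fell. With siTDRD9-2, 3 of the 23 rose and 0 fell, and the median change was 0.12, against 0.06 with siTDRD9-1. *HLA-E* read 7.59, 7.44 and 7.53 against 8.33, 8.31 and 8.24 (0.77, SE 0.09, adjusted p = 0.000547), and 5 of its 6 probe sets passed. It also rose with siTDRD9-2, by 0.55 (adjusted p = 0.00323), and the difference between the siRNAs did not pass (adjusted p = 0.218). *HLA-C* rose by 0.92 at its brightest probe set (adjusted p = 0.00182) and had changes of 0.04 and -0.09 at the others. HLA genes are close in sequence, so a probe set may report more than 1 of them. No gene of 20 NF-kB targets and cytokines passed at its brightest probe set. That list did not hold *PTGS2*, described below, or the chemokine *CCL26*, which was named after its value was seen. *CCL26* was called up with siTDRD9-1 (1.21, adjusted p = 0.000696) and had a change of 0.30 with siTDRD9-2 (adjusted p = 0.263).

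Promoters of the interferon list often held the letters of an interferon-response element, a pair of GAAA words spaced by 1 or 2 bases. The forms GAAANGAAA and GAAANNGAAA, searched for on both strands, were in 30.4% and 55.4% of 56 promoters of the list and in 3.12% and 3.57% of all promoters. The list was made of genes that respond to interferon, so these shares describe the list and are no result about siTDRD9-1. The matches of *RIGI* and *IFI35*, from RefSeq on GRCh38.p14 and printed on the gene's strand, are shown since both are described above, with GAAANGAAA in capitals.
*RIGI* (chr9:32526375-32526414, minus strand): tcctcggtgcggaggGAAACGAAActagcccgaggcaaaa
*IFI35* (chr17:43006753-43006792, plus strand): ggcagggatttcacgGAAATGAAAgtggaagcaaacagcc
Both genes hold the same 9-letter word but for its middle base, and *RIGI* was called while *IFI35* missed the threshold.

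Calls with siTDRD9-1 were then set against siTDRD9-2. Of the 241 probe sets called up, 81 were not called with siTDRD9-2, and of the 111 called down, 93 were not, although 206 of the 241 and 47 of the 111 passed the FDR of 0.01 in the same direction with siTDRD9-2 at any fold. A missed call does not show a difference, and the difference between the siRNAs passed an FDR of 0.01 in 20 of the 241 and 47 of the 111. Over all probe sets, 96 (0.195%) were called higher and 55 (0.112%) called lower with siTDRD9-1 than with siTDRD9-2. A gene was counted as changed further with siTDRD9-1 where 1 probe set was called against siControl and called in the same direction against siTDRD9-2. Such a gene may also have changed with siTDRD9-2, as *TDRD9* (-0.70) and *MKX* (-0.68) did. This left 22 genes, 9 up and 13 down. Since both criteria use the siTDRD9-1 arrays, the sizes below are a description of this choice.

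**Figure D2:**
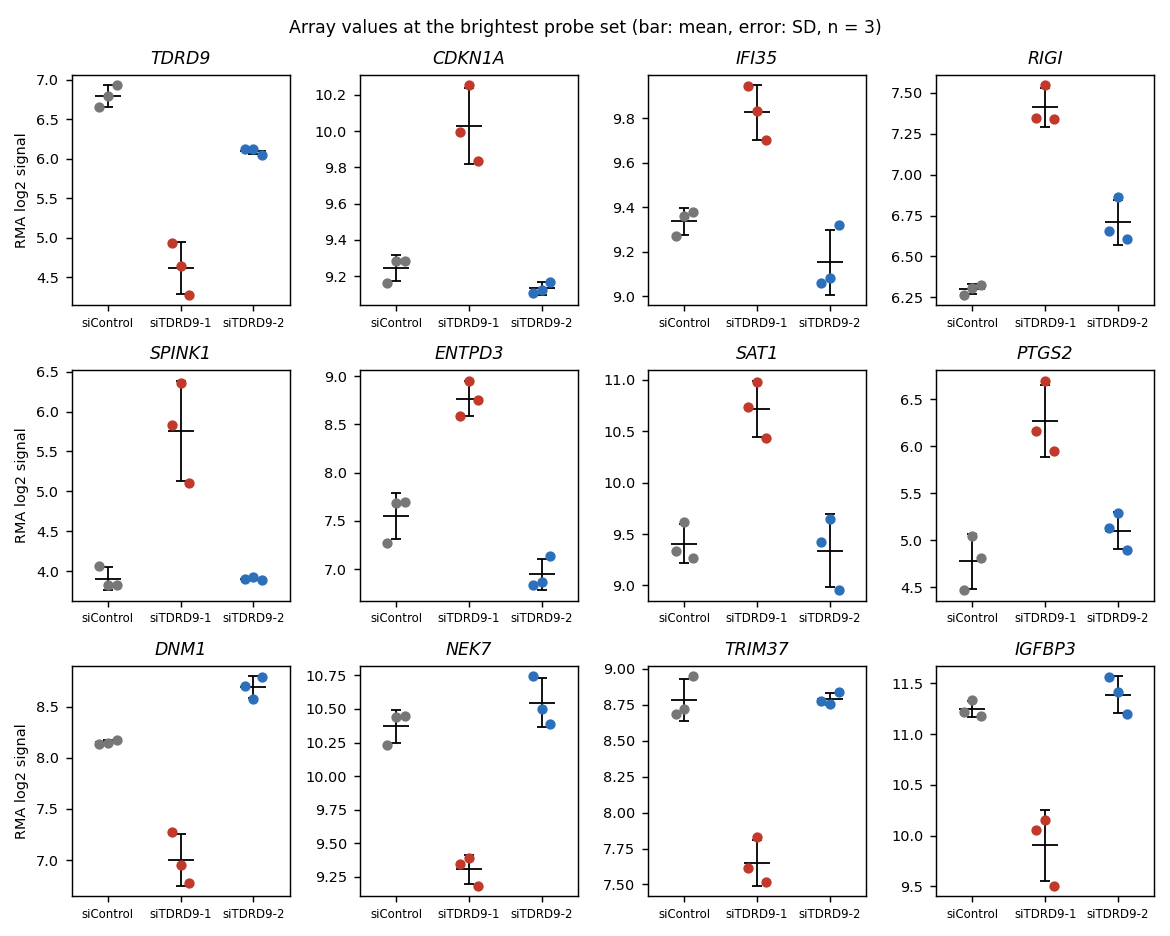
RMA log2 signal (y axis) of 12 genes at their brightest probe set in the siControl, siTDRD9-1 and siTDRD9-2 groups (x axis), with 1 point an array, a bar at the mean and the SD as error (n = 3). *SPINK1* is raised in the siTDRD9-1 arrays alone, at 5.10 to 6.35, and *DNM1* is lowered there and lies at 8.58 to 8.79 with siTDRD9-2.

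The 9 genes up were *SPINK1*, *ENTPD3*, *C2CD4A*, *SAT1*, *ARNT2*, *PTGS2*, *GRAMD1B*, *MUC13* and *MCAM*. *SPINK1*, a secreted inhibitor of trypsin, read 4.07, 3.83 and 3.82 with siControl and 5.83, 6.35 and 5.10 for siTDRD9-1. The rise was 3.62-fold (1.85, SE 0.23, adjusted p = 0.00063). The siTDRD9-2 arrays, at 3.90, 3.93 and 3.89, lay within the siControl range. *ENTPD3*, an enzyme on the cell surface that cleaves nucleoside triphosphates, read 7.28, 7.68 and 7.70 with siControl. The siTDRD9-1 arrays lay above, at 8.59, 8.95 and 8.76, and the siTDRD9-2 arrays below, at 6.84, 6.86 and 7.13. It rose 2.32-fold with siTDRD9-1 (1.22, SE 0.14, adjusted p = 0.000363), was 0.61 lower with siTDRD9-2 (adjusted p = 0.0153), and its second probe set rose by 1.42. *ENTPD3* was the only one past the threshold of 19 ectonucleotidases and alkaline phosphatases.

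*PTGS2*, which encodes the inducible cyclooxygenase COX-2, rose at all 3 of its probe sets, by 1.5, 1.10 and 0.92. The brightest read 4.47, 5.05 and 4.81 with siControl and 6.17, 6.70 and 5.95 with siTDRD9-1. *SAT1*, the enzyme that acetylates the polyamines spermidine and spermine, read 9.34, 9.62 and 9.26 against 10.74, 10.98 and 10.44 (1.31, SE 0.18, adjusted p = 0.00108), with a change of -0.07 with siTDRD9-2. *ARNT2*, a partner of basic helix-loop-helix transcription factors, was close to the threshold at its brightest probe set (1.21, adjusted p = 0.00948) and lost its call there with 5 of the 6 arrays, each left out alone, while a second probe set rose by 1.33 (adjusted p = 0.000408). *C2CD4A*, at 5.09, 5.24 and 5.23 against 6.25, 6.47 and 5.87, was 0.52 lower with siTDRD9-2 than with siControl, which did not pass (adjusted p = 0.0558). Its rise was close to 2-fold (1.01), and it too lost its call with 5 of the 6 arrays, each left out alone. *MCAM*, a cell adhesion molecule, rose by 0.89 and 1.20 at its 2 probe sets, and *MUC13*, a transmembrane mucin, by 0.68 and 1.19. With siTDRD9-2 their changes lay between -0.23 and 0.00 and did not pass.

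The array of siTDRD9-1 replicate 3, with the lowest *TDRD9* signal, had the lowest siTDRD9-1 signal of *CDKN1A*, *IFI35*, *SPINK1*, *PTGS2*, *SAT1*, *ARNT2* and *C2CD4A*. It was the lowest of the 3 in 20 of the 33 genes called up and in 30 of the 49 called down. This array had the narrower spread of signals given above, and the part of that spread was not tested.

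The 13 genes down were *TDRD9*, *MKX*, *IGFBP3*, *RINT1*, *THRB*, *TRIM37*, *ZFR*, *NEK7*, *DNM1*, *CCDC50*, *TRNP1*, *TMEM167B* and *POMP*. *DNM1*, a dynamin that pinches off endocytic vesicles, read 8.13, 8.15 and 8.17 with siControl and 7.27, 6.95 and 6.78 for siTDRD9-1, while the siTDRD9-2 arrays lay above both, at 8.71, 8.58 and 8.79. With siTDRD9-1 45.1% of the siControl signal was left (-1.15, SE 0.12, adjusted p = 0.000218). With siTDRD9-2 the signal was 0.54 higher than with siControl at this probe set (adjusted p = 0.0133) and rose by 0.51 at a second one (adjusted p = 0.00541), which fell by 1.01 with siTDRD9-1. Another, dimmer probe set had a change of -0.05. Of 32 genes of dynamins and clathrin endocytosis, 4 fell (12.5%, against 2.8% of all genes) and 2 rose (6.25%, against 1.25%). *AP2A2* and *AP2B1*, subunits of the clathrin adaptor, fell by 0.68 and 0.57. They passed at 1 of 3 and 1 of 2 probe sets, and the other of *AP2B1* had a change of 0.06. *ITSN2*, on the same list, was called up with siTDRD9-1 (1.33, adjusted p = 0.00106) and rose by 0.93 with siTDRD9-2. It passed at 1 of its 4 probe sets, where the lowest change was -0.27.

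*NEK7*, a mitotic kinase that also takes part in the NLRP3 inflammasome, fell at all 3 of its probe sets, by 1.07, 1.12 and 1.09. The brightest read 10.23, 10.44 and 10.45 with siControl against 9.34, 9.39 and 9.18 for siTDRD9-1, and 10.75, 10.50 and 10.39 for siTDRD9-2. *RINT1*, which acts in traffic between the Golgi and the endoplasmic reticulum, was even within each group, at 10.35, 10.53 and 10.45 against 9.19, 9.15 and 9.14 (-1.28, SE 0.10, adjusted p = 5.06e-05). *TRIM37*, a ubiquitin ligase that limits centriole duplication, read 8.69, 8.72 and 8.95 against 7.61, 7.83 and 7.52, and with siTDRD9-2 it had a change of 0.01. *IGFBP3*, a secreted binding protein of insulin-like growth factors, read 11.22, 11.33 and 11.18 against 10.06, 10.15 and 9.51, with 39.6% left (-1.34, SE 0.16, adjusted p = 0.000412), and 11.56, 11.41 and 11.20 with siTDRD9-2. *MKX*, a homeobox factor of tendon, read 5.73, 5.90 and 6.05 against 3.99, 4.37 and 3.86 (-1.81, SE 0.13, adjusted p = 4.54e-05), and it also fell with siTDRD9-2, by 0.68.

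The probe sets of a gene did not always move together. *THRB*, the thyroid hormone receptor beta, fell at 4 of its 7 probe sets, by 1.00 to 1.63, and its brightest also fell with siTDRD9-2, by 0.51 (adjusted p = 0.00831). *CCDC50* had 4 called probe sets, the largest at -1.43, while its brightest, with signals of 8.03 in all 3 siControl arrays and 7.69, 7.85 and 7.63 with siTDRD9-1, did not pass (adjusted p = 0.0446). *ZFR*, a zinc finger RNA-binding protein, fell at its brightest probe set from 10.88, 11.07 and 11.12 to 9.72, 9.94 and 9.89 (-1.17, adjusted p = 0.000118) and rose at 2 others, by 0.80 and 0.76. With siTDRD9-2 its brightest probe set had a change of -0.02 and its 5 others rose by 0.78 to 2.04.

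**Figure D3:**
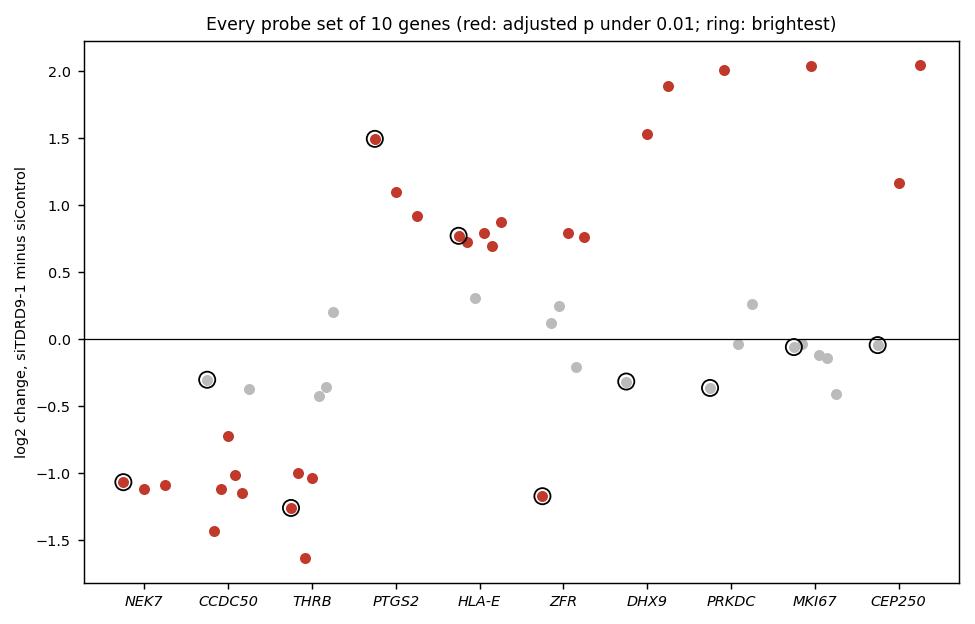
Change with siTDRD9-1 (y axis, log2, siTDRD9-1 minus siControl) of every probe set of 10 genes (x axis). Red points have an adjusted p under 0.01, grey points do not, and a ring marks the brightest, so that all 3 of *NEK7* lie near -1.1 while *MKI67* and *PRKDC* each have 1 red point near 2 and a ringed grey one near or below 0.

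This disagreement was wide among the called rises, and the part of the 3′ and 5′ signals given above in it was not tested. Of 158 genes called up with several probe sets, 15 had all of them past the FDR of 0.01 in the same direction. Their 466 other probe sets had a median change of 0.04, and 55 of them (11.8%) passed in the same direction. Among 70 genes called down with several probe sets, 9 had all of them past, and 26 of 174 other probe sets (14.9%) passed in the same direction. Of the 241 probe sets called up, 184 were of genes with a brighter probe set.

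Several genes of the cell cycle and of DNA repair showed it. *MKI67*, which encodes the proliferation marker Ki-67, had 1 probe set at 7.02, 7.16 and 7.16 with siControl and 9.06, 9.09 and 9.30 with siTDRD9-1 (2.04, adjusted p = 1.18e-05), while the brightest of its 6 had a change of -0.06. *PRKDC*, the DNA-dependent protein kinase, had 1 probe set that rose from 8.62, 8.94 and 8.89 to 10.70, 10.72 and 11.04, and its brightest had a change of -0.36 (adjusted p = 0.15). *DHX9*, a helicase of double-stranded RNA, rose by 1.89 and 1.53 at 2 probe sets, and its brightest had a change of -0.32 (adjusted p = 0.058). These rises were also present with siTDRD9-2, at 1.67 for *MKI67*, 2.05 for *PRKDC*, and 2.25 and 2.00 for *DHX9*. The fall of *AXL*, a receptor tyrosine kinase, at 1 dim probe set (-2.08) likewise stood beside a change of -0.06 at the other.

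At their brightest probe sets, few genes of cell division passed. Over all genes, 1.25% rose and 2.8% fell at this threshold. Of 41 genes of DNA replication 1 rose (2.44%) and 2 fell (4.88%), with a median of -0.04. *RRM1*, the large subunit of ribonucleotide reductase, fell from 10.69, 10.69 and 10.61 to 10.06, 9.99 and 9.90 (-0.68, adjusted p = 0.000541) and had a change of 0.01 with siTDRD9-2, a difference that passed (-0.69, adjusted p = 0.00101). *RFC5*, of the clamp loader, fell by 0.96 and lay 0.53 below siTDRD9-2. It passed at 2 of its 4 probe sets, and another had a change of 0.57 that did not pass. Of 35 genes of G2 and M phase, 32 were lower, but only *PRC1* fell (-0.47) and *TOP2A* rose (0.72), with a median of -0.14. Each is 2.86% of that list. *TOP2A* passed at 1 of 3 probe sets, with a lowest change of -0.11, and *PRC1* at 1 of 4, with a highest change of 0.13. *MAD2L1*, of the spindle checkpoint, which is not on that list and was named after its value was seen, fell by 1.15. Of 35 genes of double strand break repair 2 rose (*RIF1* and *RPA1*, 5.71%) and *NHEJ1* fell (2.86%). *RIF1* passed at 2 of its 7 probe sets, and another had a change of -0.27. Of 23 cohesin and condensin genes 2 rose (*SMC3* and *NCAPD2*, 8.7%) and none fell. The median was -0.17, and 17 of the 23 had a lower mean with siTDRD9-1. *SMC3*, of the cohesin ring, rose from 9.77, 9.70 and 9.36 to 10.87, 10.86 and 10.82 (1.24), and by 1.38 with siTDRD9-2. Another of its probe sets had a change of -0.34 with siTDRD9-1 (adjusted p = 0.0324).

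YAP is a transcriptional coactivator that drives genes of growth and matrix. Of 22 YAP target genes 5 fell and none rose, against 2.8% of all genes that fell, with a median change of -0.26 against -0.03 over all genes. In 10 of the 22 (45.5%) all siTDRD9-1 arrays lay below all siControl arrays, against 18.9% of all genes. *CCN1*, a matrix protein, read 8.79, 8.70 and 8.82 against 7.57, 7.56 and 7.51 (-1.22, SE 0.10, adjusted p = 8.02e-05), and its second probe set fell by 0.78. The others were *IGFBP3*, *DOCK5* (-0.92), *ASAP1* (-0.55) and *FJX1* (-0.52). Of their probe sets, 1 of 2 of *IGFBP3*, 1 of 3 of *DOCK5* and 1 of 4 of *ASAP1* passed. Another probe set of *DOCK5* had a change of -0.0006. With siTDRD9-2 the median of the list was -0.16, and *CCN1* lay 0.77 lower with siTDRD9-1 than with siTDRD9-2 (adjusted p = 0.00178). Between 3 and 6 of the 22 fell over the alternatives that were run for gene lists.

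**Figure D4:**
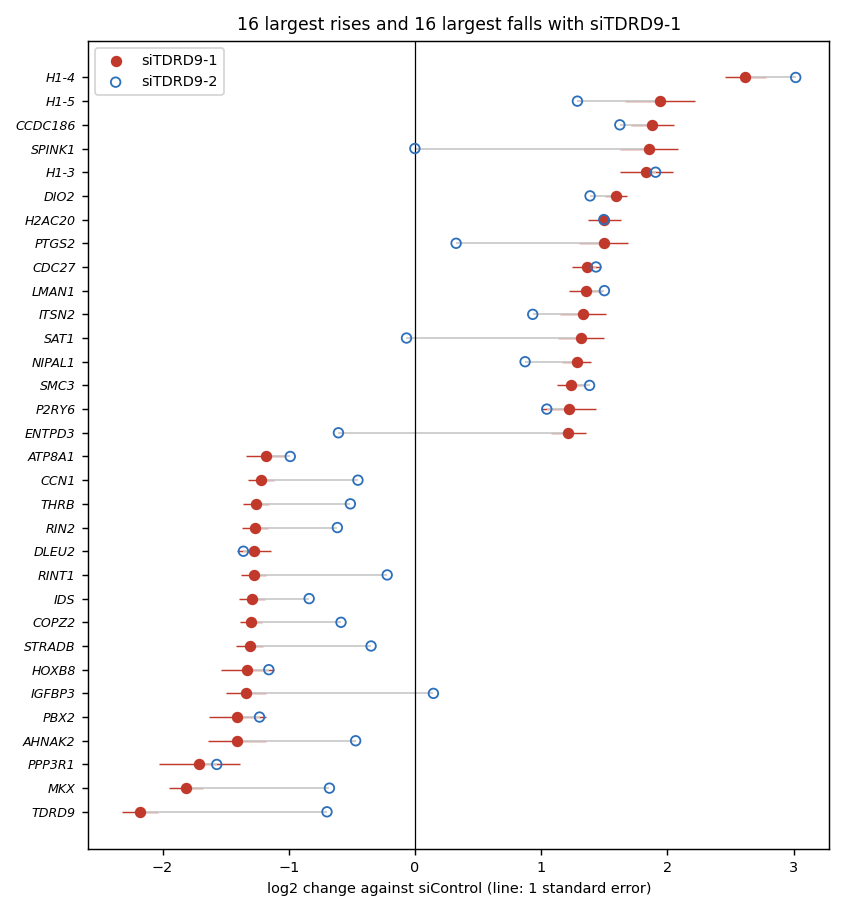
Change against siControl (x axis, log2) of the 16 largest rises and 16 largest falls among genes called at their brightest probe set (y axis), with filled red points for siTDRD9-1 (line: 1 standard error) and open blue points for siTDRD9-2. *H1-4* is at 2.62 and 3.02, while *SPINK1* is at 1.85 and 0.00 and *IGFBP3* at -1.34 and 0.15.

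Other large rises were present with both siRNAs. *CCDC186*, which acts in the formation of dense core vesicles, read 7.77, 7.87 and 7.14 against 9.58, 9.55 and 9.28 (1.88, adjusted p = 0.000113), and 1.62 higher with siTDRD9-2. *DIO2*, the deiodinase that activates thyroid hormone, had little spread, at 4.36, 4.32 and 4.30 against 5.99, 5.91 and 5.86 (1.59, SE 0.09, adjusted p = 1.18e-05), and rose by 1.39 with siTDRD9-2. *LMAN1*, a cargo receptor of the secretory pathway, rose by 1.35, and *CDC27*, a subunit of the anaphase-promoting complex, by 1.36, and these rose by 1.5 and 1.43 with siTDRD9-2. With siTDRD9-1, *CCDC186* and *CDC27* each rose at 2 of 5 probe sets, *DIO2* at 3 of 5 and *LMAN1* at 4 of 6. The lowest changes among the probe sets of *CCDC186* and *CDC27* were -0.22 and -0.14.

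Some of the largest falls had a wide spread within siControl. *PPP3R1*, the regulatory subunit of calcineurin, read 9.38, 9.78 and 8.08 with siControl and 7.31, 7.36 and 7.45 with siTDRD9-1 (-1.71, SE 0.32, adjusted p = 0.0064). *PBX2* (7.94, 7.99 and 6.98) and *HOXB8* (7.26, 7.30 and 6.44), both homeobox factors, had the same low array, siControl replicate 3, with changes of -1.41 and -1.33. These 3 genes also fell with siTDRD9-2, by 1.57, 1.23 and 1.16, and each lost its call when some single arrays were left out. Other falls were tight. *COPZ2*, a coat protein, read 7.80, 7.83 and 7.92 against 6.45, 6.62 and 6.59 (-1.30, SE 0.09), and *STRADB*, a partner of the kinase LKB1, 7.46, 7.55 and 7.81 against 6.39, 6.35 and 6.15 (-1.31, SE 0.11). *AHNAK2*, a large scaffold protein, fell at all 3 of its probe sets (-1.41 at the brightest), with changes of -0.38 to -0.47 with siTDRD9-2 that did not pass and a difference between the siRNAs that did not pass either (adjusted p = 0.0361 at the brightest).

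**Figure D5:**
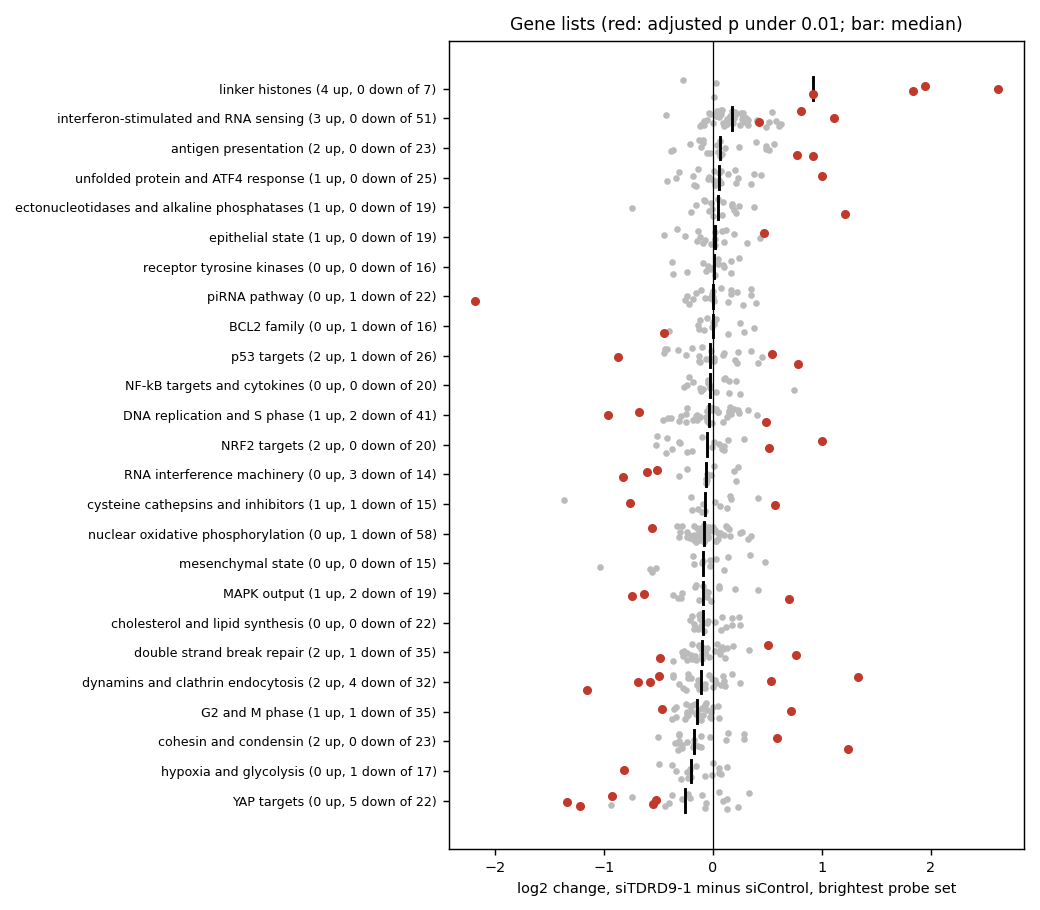
Change with siTDRD9-1 (x axis, log2, brightest probe set) of each member of the gene lists (y axis, with the numbers past the threshold), with red points for an adjusted p under 0.01, grey points for the rest and a bar at the median. The linker histones, at a median of 0.92, lie farthest to the right and the YAP targets, at -0.26, farthest to the left.

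In the groups of metabolism and stress few genes passed. *SLC7A11*, the cystine transporter, read 7.85, 8.16 and 8.16 against 9.09, 9.18 and 8.89 (1.00, SE 0.11, adjusted p = 0.000299), was the only one of 25 genes of the unfolded protein and ATF4 response that passed, and rose by 0.60 with siTDRD9-2. It was also on the list of 20 NRF2 targets, of which 2 rose (10%, against 1.25% of all genes). *HMOX1*, on the same list, had a change of -0.24 with siTDRD9-1 and rose by 0.64 with siTDRD9-2. *ADM*, the vasodilator peptide adrenomedullin, was the only one of 17 hypoxia and glycolysis genes that passed, from 11.74, 11.70 and 11.59 to 10.87, 10.99 and 10.72 (-0.81, adjusted p = 0.00108). None of 22 genes of cholesterol and lipid synthesis passed. Of 58 genes of nuclear oxidative phosphorylation only *COX7C* fell (-0.56), with 13.16, 13.14 and 13.16 against 12.64, 12.50 and 12.65.

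In growth factor signalling, none of 16 receptor tyrosine kinases passed at the brightest probe set. Of 19 genes of MAPK output *DUSP6*, a phosphatase of ERK, rose by 0.69 (5.26% of the list, against 1.25% of all genes). *SPRED1* and *ETV4* fell by 0.75 and 0.63 (10.5%, against 2.8%). With siTDRD9-2, 6 of the 19 fell and 0 rose, and the median change was -0.33, against -0.09 with siTDRD9-1. Of 15 cathepsins and their inhibitors *CTSO* rose by 0.57 and *CTSV* fell by 0.76, each 6.67% of the list. Of 19 genes of the epithelial state *ELF3* rose (0.47), and none of 15 of the mesenchymal state passed.

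Of the markers of cell types, 1 passed. The mean level of 10 lung epithelium markers was 7.04 to 7.08 in the siControl arrays and 6.93 to 7.21 in the siTDRD9-1 arrays, and none of them passed. Of these, *KRT7* (13.02 with siControl), *EPCAM* (12.27) and *MUC1* (11.17) were bright, and *SFTPA1*, which encodes a surfactant protein of alveolar cells, was at 2.70. The 7 colorectal markers had mean levels of 4.34 to 4.38 against 4.24 to 4.44. None of 7 leukocyte and 6 endothelium markers passed, and of 10 fibroblast markers only *LUM* fell, between dim signals (3.67, 3.81 and 3.97 against 2.93, 3.12 and 2.94).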

How the data were processed

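PrimeView 3′ expression arrays of 9 transfected cultures of NCI-H1993 (3 groups of 3) were used. The authors normalised the arrays by RMA, and the deposited values are log2 signals with no further scaling by group. The submitters' processing notes name Affymetrix Expression Console, RMA and limma, without versions. The labels name a kit for whole-transcript labelling, and how it was combined with this 3′ array is not given in the sources used here. Of 49395 probe sets, 102 control probe sets were set aside and 49293 tested with limma 3.58.1 (lmFit and eBayes, R 4.3.3), in 1 model of the 3 groups with no covariate, Benjamini-Hochberg adjusted over all of them. Calls needed an FDR under 0.01 and 2-fold, after the study's methods. Genes were named from the platform annotation, where 44988 probe sets named 1 gene, 1832 several and 2473 none. Listed genes without a single-gene probe set were not analysed here. The number of arrays, 3 a group, limits the precision.

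The named genes were *TDRD9*, *CDKN1A*, *IFI35*, *ENTPD3* and *DNM1*, the 12 largest called rises and falls at the brightest probe set, the 8 largest each way at any probe set, the 8 each way with the largest difference from siTDRD9-2, and up to 4 members of each gene list. Other genes were named after their values were seen. These members, lists and tests were chosen with earlier results of these data known, so lists have no test of their own. The limma step was tested on simulated data. Alternatives were a fit of the 2 groups alone, a replicate block, an intensity trend, cyclic loess or median centring, removal of dim probe sets, a looser threshold, averaging over all probe sets of a gene, and fits with 1 array fewer. The gene lists were run only under median centring, cyclic loess, averaging over all probe sets of a gene and fits with 1 array fewer. For them, cyclic loess was added after seeing the data. The replicate numbers were not used as pairs in the main fit. Deviations of siControl and siTDRD9-1 arrays with the same number correlated at 0.0995, 0.0812 and -0.0439. With siTDRD9-2 arrays of the same number, those of siControl correlated at -0.15, 0.119 and 0.0579, and those of siTDRD9-1 at -0.101, 0.15 and 0.035. Low correlations cannot show that the experiments were unpaired, and counts with the replicate number as a block are given below. Sequences are RefSeq promoters on GRCh38.p14.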

Additional observations from a re-analysis of the deposited data

Results flagged for a closer look

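The difference between the siRNAs (siTDRD9-1 minus siTDRD9-2, log2, limma adjusted p under 0.01 for the difference itself, brightest probe set) drew attention to 32 of the genes named by rule. Higher with siTDRD9-1 were *SPINK1* (1.85), *ENTPD3* (1.82), *C2CD4A* (1.53), *SAT1* (1.38), *ARNT2* (1.32), *PTGS2* (1.17), *MCAM* (1.12), *CDKN1A* (0.90), *MUC13* (0.71), *RIGI* (0.70), *IFI35* (0.67) and *IRF7* (0.63). Lower with siTDRD9-1 were *DNM1* (-1.69), *IGFBP3* (-1.48), *TDRD9* (-1.48), *NEK7* (-1.24), *ZFR* (-1.15), *MKX* (-1.14), *TRIM37* (-1.14), *RINT1* (-1.06), *STRADB* (-0.96), *HMOX1* (-0.88), *CCN1* (-0.77), *THRB* (-0.75), *COPZ2* (-0.71) and *NHEJ1* (-0.71). Smaller differences in the same direction were those of *RRM1* (-0.69), *PLK2* (-0.68), *COX7C* (-0.55), *RFC5* (-0.53), *TRNP1* (-0.52) and *CCDC50* (-0.50). At these probe sets *IFI35*, *HMOX1* and *CCDC50* did not pass against siControl with siTDRD9-1. Genes named after their values were seen also met the criterion, among them *GRAMD1B* (1.14), *TMEM167B* (-1.01) and *MAD2L1* (-0.89).

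Among the control probe sets, which enter no comparison of genes, 2 kinds were higher in the siTDRD9-1 than in the siControl arrays, while the poly-A spike-ins were lower. The 18S ribosomal RNA control was 1.48 higher and the mean of 18 hybridization control probe sets 0.29 higher, and both were also higher with siTDRD9-2. The exact permutation p was 0.1 in each case, the smallest that this design allows.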

How the results depend on the processing

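With each array left out, the called probe sets numbered 282 to 404 (352 with all arrays) and the genes called at their brightest probe set 64 to 91 (82 with all). The genes changed further with siTDRD9-1 numbered 20 to 25 (22 with all), and the *TDRD9* change ran from -2.34 to -2.01. Without siTDRD9-1 replicate 3 the brightest calls were 46 up and 38 down, and without siTDRD9-1 replicate 2 they were 28 and 63. Of the genes changed further with siTDRD9-1, 15 of 22 were kept in every such fit. Without siTDRD9-1 replicate 3, 25 were found, 16 up and 9 down, with *POMP*, *THRB*, *TMEM167B* and *TRNP1* lost and *MX1*, *CXCL8*, *CCL26*, *TFF1*, *HDAC9*, *IFNLR1* and *IL1RL1* gained. At an FDR of 0.05 and 1.5-fold the counts were 1971, 558 and 222. With all probe sets of a gene averaged, 39 genes were called (22 up, 17 down), 31 of them among the 82.

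With the replicate number as a block the counts were 366, 83 and 24 and the *TDRD9* change was -2.18 (adjusted p = 0.000121), and no count moved past 1.5 times. Median centring moved the median change of all probe sets from 0.00 to -0.03 and cyclic loess to 0.01, and the brightest calls split 28 up and 54 down, and 37 up and 41 down. The direction of gene-list medians near 0 turned in some settings, with the p53 targets between -0.09 and 0.06 and the cohesin and condensin genes between -0.27 and 0.02. Among named probe sets, 1117 results kept their side of the threshold under the settings other than left-out arrays, 35 lost it and 16 gained it. With an array left out, 1041 kept their side, 165 lost it and 0 gained it. Of 49 list members past the threshold, 24 passed with every array left out.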
